A study of Mus musculus with 9 samples.

Results

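The genes examined encode 10 transcription regulators that steer activated CD8 T cells towards effector or memory states: Tbx21, Eomes, Prdm1, Bach2, Id2, Id3, Tcf7, Batf, Irf4 and Runx3. They were chosen by name, and all probe sets that the array annotation assigns to one of these symbols were taken, where a probe set is a group of short array sequences read out as 1 signal. This gave 16 probe sets for 9 of the genes, out of 34945 probe sets with a single gene symbol. Tcf7, which encodes TCF-1, was not analysed here. All 16 probe sets passed the filter on low signals.

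The RNA came from cytotoxic T lymphocytes grown from spleens of mice carrying P14, a transgenic T cell receptor that recognises the viral peptide gp33-41, on an otherwise wild-type background. In every group the spleen cells were activated for 48 h with that peptide and the cytokines IL-2 and IL-12, and grown for 96 h more, 6 days in total. During the final 48 h they received 1 uM KU-0063794, 20 nM rapamycin or DMSO, the solvent control. Rapamycin acts through the protein FKBP12 mainly on mTOR complex 1, whereas KU-0063794 blocks the mTOR kinase in both of its complexes. Each group held 3 cultures, 1 from each of 3 spleens, so the 3 treatments were compared within the same spleen as well as between groups. The inhibitors were given at different doses, 1 of each, and cultures activated with 1 peptide are a limited model of effector and memory cells in an infected animal.

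In CD8 T cells, T-bet (Tbx21) and EOMES are T-box activators of killing and interferon gamma genes, while Blimp-1 (Prdm1) represses memory genes and BACH2 holds back effector genes. ID2 and ID3 are helix-loop-helix proteins without a DNA-binding region; they bind E proteins such as E2A and keep them off DNA, ID2 being linked to effector and ID3 to memory-forming cells. BATF and IRF4 bind DNA together at composite sites after T cell receptor signals, and RUNX3 with its partner CBFb maintains the CD8 lineage and opens effector genes.

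On each array 30.1% to 30.9% of probe sets exceeded the background level, 1.32 on the log2 scale, which is the 95th percentile of 28 genes restricted to other tissues. Array medians were 0.47 to 0.53, and arrays correlated across probe sets with r of 0.987 to 0.996. The signal near the 3' end of the actin control exceeded that near its 5' end by 0.65 to 0.70 log2 in KU-0063794, 0.62 to 0.72 in rapamycin and 0.49 to 0.65 in DMSO cultures. It was higher with each inhibitor than with DMSO in 3 of 3 spleens, the same measure of the Gapdh control was lower in 3 of 3, and the part of either in the differences between groups was not tested. All 11 measured CD8 T cell identity genes were above background in every group. Of the B cell markers 2 of 11 were above background, Ighm and Cd79b. The linear signal summed over all 11, most of it Ighm, was 189 to 603 in KU-0063794, 164 to 646 in rapamycin and 139 to 640 in DMSO cultures. In every group this sum was lowest in spleen 1 and highest in spleen 2. Of the plasma cell markers Jchain and Mzb1, 2 of 5, were above background, and the defining B cell genes Cd79a and Pax5 were not. For NK cells 1, 1 and 0 of 3 measured markers exceeded background in the KU-0063794, rapamycin and DMSO groups, Ncr1 being under it in each. In the same order, 1 of 4 CD4 T cell markers, 1 of 14 myeloid markers and 0 of 8 erythroid or stromal markers exceeded it in every group. In bulk RNA, fewer cells of a type and less RNA per cell cannot be told apart.

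The promoters of the 3 factors with the widest shifts in signal, Id2, Irf4 and Bach2, are shown for orientation, as the 250 bases before the RefSeq transcript start (build GRCm38.p6), 5′ to 3′ on the strand of the gene. Capitals mark matches, on either strand, to the E-box CANNTG, the RUNX site TGTGGT, the AP-1 site TGANTCA, the IRF site AANNGAAA, the FOXO site GTAAACA, the TCF site TCAAAG, the T-box site TCACACC or the CCAAT box.
Id2, chr12:25096093-25096342, minus strand: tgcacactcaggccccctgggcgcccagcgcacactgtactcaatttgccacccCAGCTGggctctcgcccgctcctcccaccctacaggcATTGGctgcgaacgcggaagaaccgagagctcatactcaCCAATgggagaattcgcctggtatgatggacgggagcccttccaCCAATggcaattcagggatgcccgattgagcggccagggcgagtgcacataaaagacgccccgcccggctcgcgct
Irf4, chr13:30748983-30749232, plus strand: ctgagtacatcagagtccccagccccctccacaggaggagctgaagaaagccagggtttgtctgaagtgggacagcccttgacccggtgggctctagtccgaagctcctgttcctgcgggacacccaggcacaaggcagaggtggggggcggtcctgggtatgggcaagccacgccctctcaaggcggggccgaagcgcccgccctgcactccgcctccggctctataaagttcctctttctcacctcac
Bach2, chr4:32417185-32417434, plus strand: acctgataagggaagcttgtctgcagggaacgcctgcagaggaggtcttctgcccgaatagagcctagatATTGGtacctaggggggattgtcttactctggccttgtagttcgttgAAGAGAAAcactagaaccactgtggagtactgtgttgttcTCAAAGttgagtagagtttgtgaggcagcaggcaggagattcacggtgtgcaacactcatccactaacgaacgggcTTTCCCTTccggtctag
The Id2 window held 3 CCAAT boxes and 1 E-box, the palindrome CAGCTG 196 to 191 bases before the start. The Bach2 window held the TCF site, the motif of TCF-1 and LEF1, 93 to 88 bases before the start, 2 IRF sites at 133 to 126 and 17 to 10, and 1 CCAAT box, read as ATTGG. No motif searched was found in the Irf4 window, and the matches shown do not overlap each other. Among 32851 promoter windows of this length, 66.2% held an E-box, 33.8% a CCAAT box, 21.3% the IRF site and 13.8% the TCF site, so matches of these kinds are common. The RUNX site was in 14%, the AP-1 site in 6.75%, the T-box site in 3.33% and the FOXO site in 3.17%.

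Of the 9 measured genes, none passed the test in any contrast when the spleens were ignored, and 2 passed when each spleen was compared with itself: Id2 fell with both inhibitors, and Irf4 rose with KU-0063794. In the limma fit without a spleen term, 0 of 9 genes had an adjusted p under 0.05 against DMSO, where 4.44% of all 13278 genes did for rapamycin and 4.07% for KU-0063794. At an unadjusted p under 0.05 there were 2 for rapamycin, Id2 and Bach2, and 3 for KU-0063794, these 2 and Irf4, among 17.9% and 18.5% of all genes. With the spleen as a block, 1 of 9 was called for rapamycin (11.8% of all genes) and 2 of 9 for KU-0063794 (12.4%). With so few members, these counts are not set apart from the share of all genes. The pairing by spleen comes from the design, with arrays matched by the replicate number in their titles. The arrays of a spleen also deviated together from their group means.

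**Figure D1:**
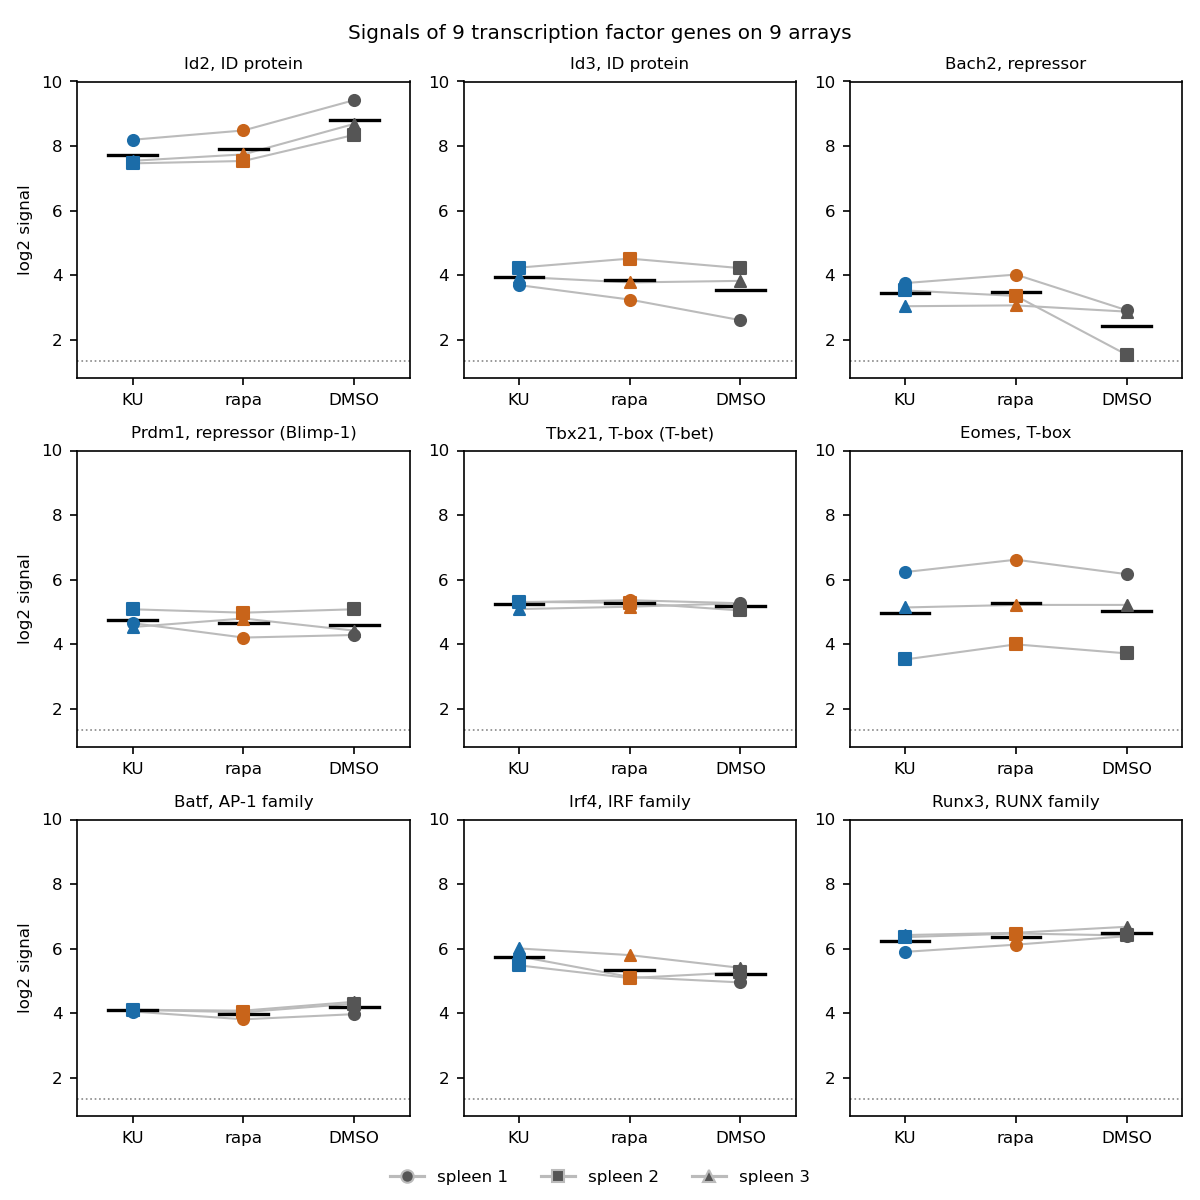
Log2 signal (y axis) of the representative probe set of each of 9 factor genes in cultures with KU-0063794 (KU), rapamycin (rapa) and DMSO; each symbol is 1 array, grey lines join the cultures of a spleen, bars are means of 3 and the dotted line is the background level of 1.32. Every Id2 line rises towards DMSO, whereas the 3 Eomes lines stay apart and nearly level; signals of different genes are not comparable in height.

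Id2 fell with either inhibitor when compared within spleens. Its signal was 8.19, 7.46 and 7.54 in KU-0063794 cultures of spleens 1, 2 and 3, 8.48, 7.54 and 7.74 in rapamycin cultures, and 9.42, 8.35 and 8.69 in DMSO cultures. Every KU-0063794 culture lay below every DMSO culture, as for 9.29% of all genes; the rapamycin range overlapped that of DMSO through spleen 1, the highest of the 3 in each group, although each rapamycin culture was below the DMSO culture of its own spleen. The fall was 1.08 log2 units with KU-0063794, or 2.12-fold, with an SE of 0.08 and an adjusted p of 0.000843 with the spleen block in limma, and 0.105 without it.

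For rapamycin the log2 difference of Id2 was -0.90 (SE 0.08), a 1.86-fold fall, with an adjusted p of 0.00189 with the block and 0.178 without. The within-spleen differences were close together, at -1.23, -0.88 and -1.14 for KU-0063794 and -0.94, -0.81 and -0.94 for rapamycin. All 3 Id2 probe sets, measured separately in a fit of 22947 probe sets, passed with the block in both contrasts. Their log2 differences were -1.08, -1.09 and -1.24 with KU-0063794 (adjusted p 0.00101, 0.00136 and 0.00929) and -0.90, -0.78 and -0.89 with rapamycin (adjusted p 0.00227, 0.00377 and 0.0314), where 4.48% and 3.85% of all probe sets passed in the lower direction. Probe sets of a gene read the same RNA and are no replicates.

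Id3, the ID protein linked to memory-forming cells, did not pass in any contrast. It had 3.69, 4.23 and 3.95 log2 in KU-0063794, 3.24, 4.51 and 3.77 in rapamycin, and 2.60, 4.22 and 3.82 in DMSO cultures. The 3 groups overlapped, and spleen 1 had the lowest value in each. The KU-0063794 minus DMSO difference, 0.41 log2 (SE 0.20, adjusted p 0.233 with the block), was positive in 3 of 3 spleens, but spleen 1 alone gave most of it. With rapamycin the difference was 0.30 (SE 0.20, adjusted p 0.399).

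The 3 E proteins are the partners that ID proteins sequester. Of these, Tcf3 (E2A) rose with KU-0063794 in the blocked fit, as did 6.52% of all genes. Its signal was 4.55 ± 0.20 in KU-0063794, 4.38 ± 0.16 in rapamycin and 4.08 ± 0.15 in DMSO cultures (SD, n = 3 each), a log2 difference of 0.47 (SE 0.09, adjusted p 0.0159 with the block, 0.0875 without) with KU-0063794. With rapamycin the difference was 0.31 and did not pass (adjusted p 0.0715 with the block). Tcf12 (HEB) differed by 0.03 and 0.00 log2 with KU-0063794 and rapamycin, and Tcf4 (E2-2) was near or below background.

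**Figure D2:**
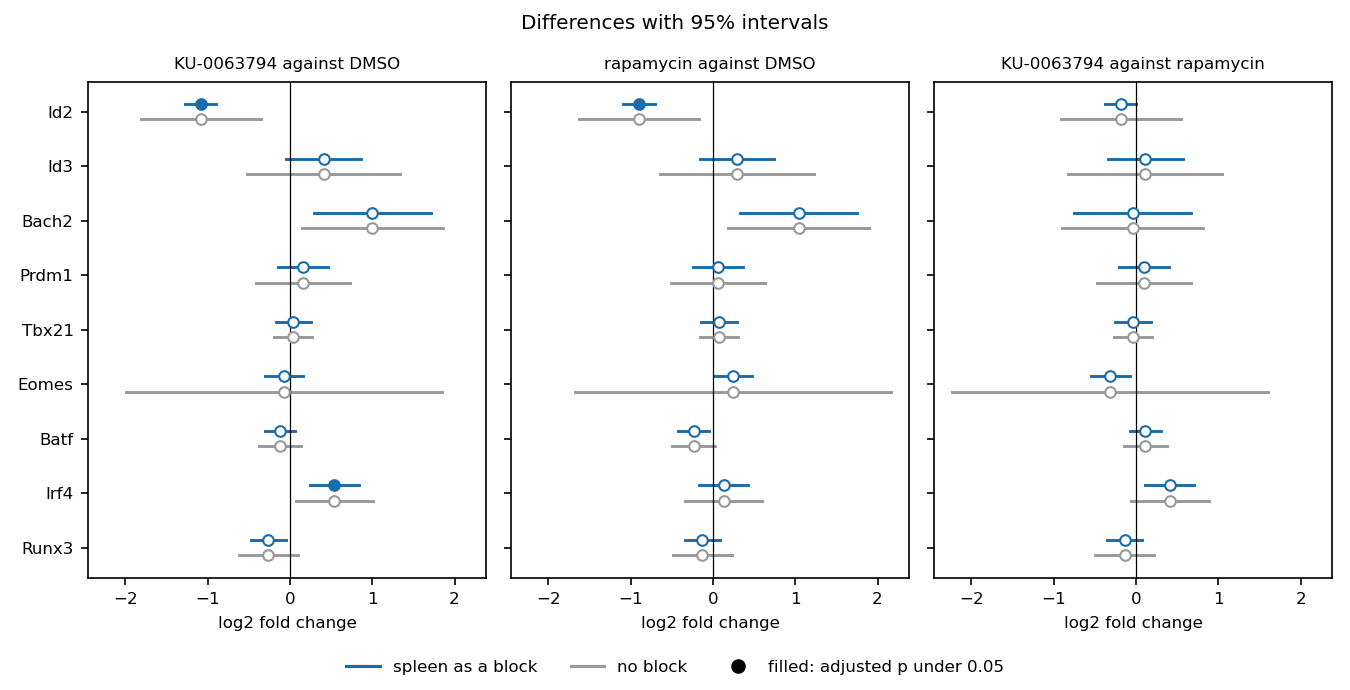
Log2 fold change (x axis) of 9 factor genes in each contrast with its 95% interval, blue with the spleen as a block and grey without; filled points have an adjusted p under 0.05. Filled points are those of Id2 in both contrasts against DMSO and of Irf4 with KU-0063794, and the Eomes interval shrinks most when the spleen is accounted for.

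BACH2 showed the next widest shift, but it missed the threshold in both fits. Bach2 had 3.75, 3.53 and 3.04 log2 in KU-0063794 cultures, 4.02, 3.36 and 3.06 in rapamycin cultures, and 2.91, 1.53 and 2.87 in DMSO cultures. No DMSO culture reached the range of either inhibitor; without regard to the test, 11% and 9.38% of all genes had KU-0063794 or rapamycin values above all DMSO values. Spleen 2 had by far the lowest DMSO value and spleen 3 hardly differed between treatments.

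The Bach2 difference was 1.00 log2 with KU-0063794 (SE 0.31, adjusted p 0.0748 with the block, 0.196 without) and 1.04 with rapamycin (SE 0.31, adjusted p 0.0698 and 0.182). By spleen it was 0.84, 1.99 and 0.17 for KU-0063794, and 1.10, 1.82 and 0.19 for rapamycin. A further Bach2 probe set had 2.18, 1.49 and 1.30 with KU-0063794, 2.03, 1.56 and 1.43 with rapamycin and 1.84, 0.67 and 1.00 with DMSO, so that 2 of the DMSO values and 1 of the KU-0063794 values were under background. Its differences of 0.49 and 0.51 log2 with KU-0063794 and rapamycin also stayed short of the threshold (adjusted p 0.0549 and 0.0506 with the block over 22947 probe sets). The remaining Bach2 probe set was under background on all arrays. Without the DMSO culture of spleen 2 the blocked differences were 0.56 and 0.60, and without that of spleen 3 Bach2 passed in both contrasts (adjusted p 0.0200 for KU-0063794 and 0.0198 for rapamycin).

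Prdm1, encoding the repressor Blimp-1, stayed within its spread. It had 4.65, 5.08 and 4.53 log2 in KU-0063794, 4.20, 4.97 and 4.79 in rapamycin, and 4.28, 5.08 and 4.42 in DMSO cultures. Groups overlapped throughout, with differences of 0.16 (SE 0.13) for KU-0063794 and 0.06 (SE 0.13) for rapamycin and adjusted p of 0.511 and 0.819 with the block. Of 5 tested genes known to be repressed by Blimp-1, 1 passed with the block in each contrast. In that fit 12.4% of all genes were called with KU-0063794 and 11.8% with rapamycin. The gene was Myc, the growth regulator, which rose by 0.39 log2 with KU-0063794 (adjusted p 0.0175) and 0.48 with rapamycin (adjusted p 0.00881). The others did not pass, among them Bcl6, which lay under background, and without the block none did. The median log2 difference of the 5 was 0.23 with KU-0063794 and 0.21 with rapamycin, against 0.01 and -0.00 over all genes.

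Tbx21, the T-bet gene, passed in no contrast. It had 5.30, 5.31 and 5.09 log2 in KU-0063794, 5.36, 5.28 and 5.16 in rapamycin, and 5.27, 5.04 and 5.27 in DMSO cultures, and the groups overlapped. The 95% interval of the difference with the block was -0.17 to 0.25 log2 for KU-0063794 and -0.14 to 0.29 for rapamycin (adjusted p 0.845 and 0.674).

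Eomes differed far more between spleens than between treatments. It had 6.23, 3.53 and 5.14 log2 in KU-0063794, 6.62, 3.99 and 5.22 in rapamycin, and 6.17, 3.71 and 5.22 in DMSO cultures of spleens 1, 2 and 3. Spleen 1 was highest and spleen 2 lowest in every group. The 3 spleen means spanned 2.60 log2 units, 6.04-fold, a wider span than in 99.9% of the 8169 genes above background, for which the median span was 0.20. Against DMSO the difference was -0.07 with KU-0063794 (adjusted p 0.739) and 0.24 with rapamycin (adjusted p 0.176), each with an SE of 0.10 in the blocked fit and 0.85 without the block.

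The other Eomes probe set had the same order of spleens, with 5.80, 3.01 and 4.49 in KU-0063794, 6.37, 3.59 and 4.65 in rapamycin, and 5.81, 3.59 and 4.87 in DMSO cultures. The B-lineage gene Ighm, the IgM heavy chain, had the reverse order of spleens, with 7.44, 9.20 and 8.27 in KU-0063794, 7.24, 9.30 and 8.39 in rapamycin, and 6.96, 9.28 and 7.85 in DMSO cultures; Cd79b and Mzb1, nearer to background, did not keep that order in every group. The part of such cells in the Eomes differences between spleens was not tested.

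**Figure D3:**
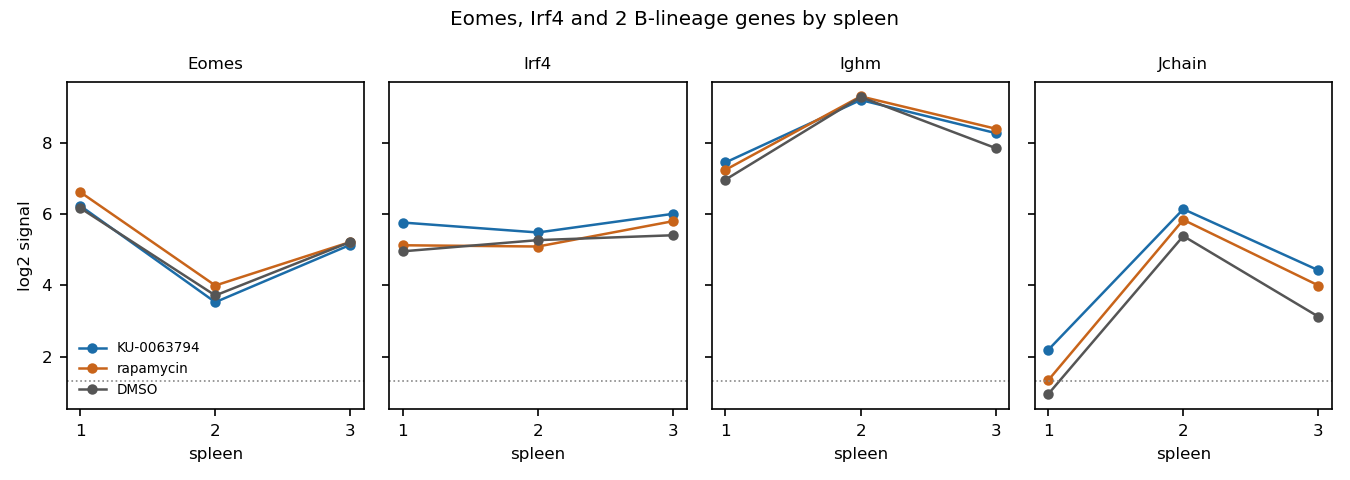
Log2 signal (y axis) of Eomes, Irf4 and the B-lineage genes Ighm and Jchain by spleen (x axis), with 1 line per treatment and the background level of 1.32 dotted. Eomes is lowest and Ighm and Jchain highest in spleen 2 under all 3 treatments, while Irf4 has its highest value in spleen 3.

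Among the other genes, the spleen means spanned 1.14 log2 for Id3, 0.92 for Id2, 0.76 for Bach2 and 0.67 for Prdm1, spans wider than in 99.0%, 98.1%, 97.0% and 95.7% of genes above background. Those of Irf4, Runx3, Batf and Tbx21 were 0.46, 0.39, 0.24 and 0.14. For Id2 and Bach2 the largest shift with an inhibitor, 1.08 and 1.04 log2, exceeded the span between spleens, and the same held for Irf4 at 0.54. Id2 and Bach2 shared with Eomes the highest mean in spleen 1 and the lowest in spleen 2, whereas Id3 and Prdm1 were highest in spleen 2 and lowest in spleen 1.

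Of 14 tested genes known as T-bet or EOMES targets, 1 rose and 6 fell with KU-0063794 and 2 rose and 5 fell with rapamycin in the blocked fit, where 12.4% and 11.8% of all genes were called. Without the block the counts were 0 and 2, and 1 and 2, where 4.07% and 4.44% of all genes were called. This list, like the others, was chosen with earlier results of these data known, so its counts do not test the list. Interferon gamma (Ifng) had the widest fall, to 7.23 ± 0.55 in KU-0063794 and 7.25 ± 0.61 in rapamycin, against 9.86 ± 0.59 in DMSO cultures (SD, n = 3 each; adjusted p 0.000643 and 0.000819 with the block). The chemokine receptor Cxcr3 was the widest riser, at 5.16, 5.77 and 5.32 in KU-0063794, 4.69, 5.70 and 5.10 in rapamycin, and 2.52, 4.61 and 4.12 in DMSO cultures.

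No DMSO culture reached the KU-0063794 or rapamycin range for Cxcr3, as for 11% and 9.38% of all genes. The Cxcr3 differences were 1.66 and 1.41 log2 (SE 0.27, adjusted p 0.00812 and 0.0154 with the block). Perforin (Prf1), the pore-forming protein of killer granules, fell by 1.74 log2 with KU-0063794 and 1.49 with rapamycin in the blocked fit (adjusted p 0.00226 and 0.00393); its other probe set, under background, had the opposite sign. The chemokine Ccl4 fell by 1.27 and 1.31 log2 (adjusted p 0.0278 and 0.0225 without the block), and Ccl5 rose by 0.76 with rapamycin (adjusted p 0.0355 without the block). The list median was -0.26 log2 with KU-0063794 and -0.24 with rapamycin, against 0.01 and -0.00 over all genes.

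Irf4, induced in proportion to T cell receptor signalling and needed for effector expansion, rose with KU-0063794 in the blocked fit. Its signal was 5.76, 5.48 and 6.00 log2 in KU-0063794, 5.12, 5.09 and 5.80 in rapamycin, and 4.95, 5.27 and 5.40 in DMSO cultures. All KU-0063794 values lay above all DMSO values, as for 11% of all genes, while rapamycin values overlapped those of both other groups. The difference with KU-0063794 was 0.54 log2, or 1.45-fold (SE 0.13, adjusted p 0.0332 with the block), made of 0.81, 0.21 and 0.60 in spleens 1, 2 and 3, and without the block it did not pass (adjusted p 0.205).

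The Irf4 call was fragile. With the block it held in 7 of 15 settings, over which the adjusted p was 0.0154 to 0.142, and it was lost when the DMSO culture of spleen 1 (adjusted p 0.142) or 3 (0.124), any KU-0063794 culture (0.134, 0.0563 and 0.0937 for spleens 1, 2 and 3) or the rapamycin culture of spleen 1 (0.0549) was left out. With rapamycin Irf4 differed from DMSO by 0.13 log2 (SE 0.13, adjusted p 0.595). The other Irf4 probe set was under background on all 9 arrays.

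Irf4 is also a factor of plasma cells, for which 5 marker genes were measured and 4 tested. Of the 4, 1 gene, Jchain, rose with each inhibitor in the blocked fit and the others did not pass. Among all genes, 6.52% rose with KU-0063794 and 6.24% with rapamycin in that fit. Jchain had 2.18, 6.14 and 4.42 log2 in KU-0063794, 1.33, 5.84 and 3.99 in rapamycin, and 0.94, 5.38 and 3.12 in DMSO cultures. With the block it rose by 1.10 log2 with KU-0063794 (adjusted p 0.00331) and 0.57 with rapamycin (adjusted p 0.0310). Mzb1, the other marker above background, had 1.59 ± 0.55 in KU-0063794, 1.57 ± 0.77 in rapamycin and 1.80 ± 0.76 in DMSO cultures (SD, n = 3 each), and the median log2 difference of the 4 was 0.08 with KU-0063794 and -0.04 with rapamycin. Summed over the 5 plasma cell markers, most of it Jchain in spleens 2 and 3, linear signals were 11.2 to 79.6 in KU-0063794, 9.36 to 67.4 in rapamycin and 9.52 to 52.7 in DMSO cultures. Prdm1, which plasma cells also express, did not pass in the same contrast, and the part of such cells in the Irf4 difference was not tested.

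Batf, the AP-1 family partner of IRF4, did not pass. It had 4.05, 4.10 and 4.10 log2 in KU-0063794, 3.81, 4.03 and 4.08 in rapamycin, and 3.97, 4.30 and 4.35 in DMSO cultures, with overlap between all groups. Rapamycin values were below DMSO in 3 of 3 spleens, by 0.23 log2 (SE 0.08, adjusted p 0.112 with the block), and the KU-0063794 difference was -0.12 (SE 0.08, adjusted p 0.409).

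Around BATF and IRF4, the list of receptor-induced and AP-1 factors held 25 tested genes, of which 1 rose and 5 fell with KU-0063794 and 2 rose and 3 fell with rapamycin in the blocked fit. Among all genes, 6.52% rose and 5.86% fell with KU-0063794 and 6.24% and 5.52% with rapamycin. Fosl2, an AP-1 subunit, had the widest fall: 4.04, 2.35 and 2.63 log2 in KU-0063794 and 4.26, 2.24 and 2.32 in rapamycin, against 5.18, 3.48 and 4.11 in DMSO cultures. Each inhibitor culture was below the DMSO culture of its spleen, and the difference was -1.25 with KU-0063794 and -1.31 with rapamycin (SE 0.15, adjusted p 0.00297 and 0.00301 with the block), with the same sign in both of its probe sets.

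Egr1, an immediate early factor, fell by 0.92 log2 with KU-0063794 in that fit (adjusted p 0.0438; above background on 7 of 9 arrays), to 2.38 ± 1.12 against 3.30 ± 1.74 in DMSO cultures (SD, n = 3 each). Without the block the list had 1 riser and 1 faller in each contrast against DMSO. In that fit 4.07% of all genes were called with KU-0063794 and 4.44% with rapamycin. The riser was Irf2, an antagonist of IRF1, which gained 0.50 log2 with KU-0063794 and 0.53 with rapamycin (adjusted p 0.0293 and 0.0225). The faller was the AP-1 subunit Jund with KU-0063794, by 0.32 log2 (adjusted p 0.0403), and with rapamycin Fosl1, whose signals were under background on all arrays. Irf1 also rose with rapamycin in the blocked fit, by 0.44 log2 (adjusted p 0.0299). The median over the list was -0.07 log2 with KU-0063794 and -0.06 with rapamycin, against 0.01 and -0.00 over all genes.

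**Figure D4:**
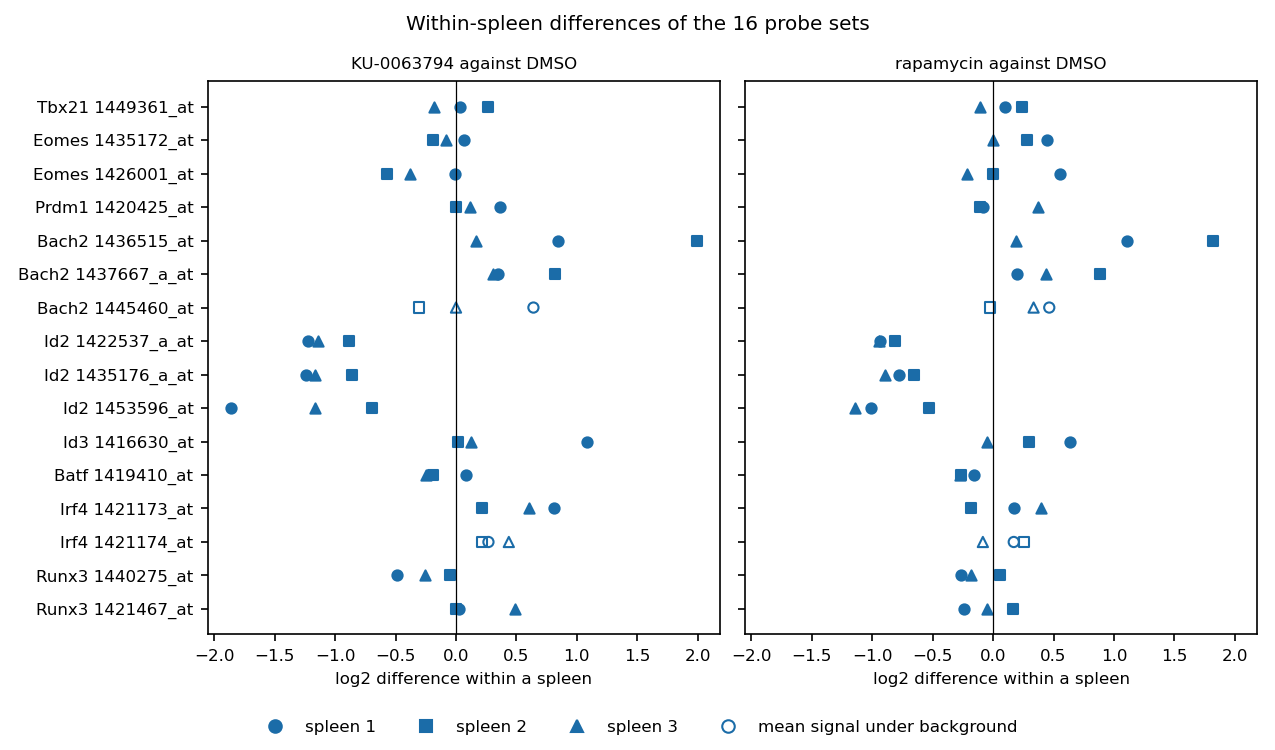
Log2 difference within each spleen (x axis) for all 16 probe sets (y axis), KU-0063794 minus DMSO on the left and rapamycin minus DMSO on the right; open symbols have a mean signal under background. All Id2 symbols lie left of 0 in both panels, whereas the 2 Bach2 probe sets above background lie right of 0 and spread widely.

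Runx3 did not pass with either drug. It had 5.90, 6.36 and 6.42 log2 in KU-0063794, 6.12, 6.47 and 6.49 in rapamycin, and 6.38, 6.41 and 6.68 in DMSO cultures, and the groups overlapped. KU-0063794 values were lower than DMSO in 3 of 3 spleens, by 0.26 log2 (SE 0.09, adjusted p 0.111 with the block); for rapamycin the difference was -0.13 (SE 0.09, adjusted p 0.437). The other Runx3 probe set lay near background, with means of 1.48 in KU-0063794, 1.27 in rapamycin and 1.31 in DMSO cultures. With KU-0063794 its difference had the opposite sign. Among 6 tested RUNX partner and lineage genes, 1 passed with the block in each contrast. Of all genes, 12.4% were called with KU-0063794 and 11.8% with rapamycin in that fit. The gene was Cbfb, the subunit that stabilises RUNX proteins on DNA. It rose by 0.42 log2 with KU-0063794 and 0.33 with rapamycin (SE 0.07, adjusted p 0.00755 and 0.0175). Without the block none of the 6 passed, and the list median was 0.03 with KU-0063794 and 0.02 with rapamycin.

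Between the inhibitors no gene differed past the threshold, either among the 9 factors or among all 13278 genes (0% in both limma fits); at an unadjusted p under 0.05 there were 0 factors of 9 without the block, where 4.74% of all genes passed, and 2 with it, Irf4 and Eomes, where 10% did. Irf4 was higher with KU-0063794 than with rapamycin in 3 of 3 spleens, by 0.41 log2 with a 95% interval of 0.12 to 0.71 in the blocked fit (adjusted p 0.389). Eomes was lower in 3 of 3 spleens, by -0.31 with an interval of -0.54 to -0.08 (adjusted p 0.394), and its other probe set by -0.43. For Id2 the difference between inhibitors was -0.19 with an interval of -0.38 to 0.00, and for Bach2 -0.04 with an interval of -0.75 to 0.67. The intervals of Tbx21 (-0.25 to 0.18), Batf (-0.07 to 0.30), Runx3 (-0.35 to 0.08), Prdm1 (-0.21 to 0.40) and Id3 (-0.34 to 0.57) all included 0. The 2 contrasts against DMSO share their control cultures, so similar values in both are partly built in.

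Among other factors of the effector programme, 16 were tested. Of these, 1 rose and 5 fell with KU-0063794 and 1 rose and 4 fell with rapamycin in the blocked fit. Among all genes, 6.52% rose and 5.86% fell with KU-0063794 and 6.24% and 5.52% with rapamycin in that fit. Without the block none of the 16 passed. At an unadjusted p under 0.05 there were 4 for each inhibitor against DMSO. Of all genes, 18.5% passed that level with KU-0063794 and 17.9% with rapamycin. Hopx, a homeodomain protein of effector-type T cells, fell by 0.74 log2 with KU-0063794 and 0.71 with rapamycin (SE 0.07, adjusted p 0.00170 and 0.00209). Its signal was 8.12, 7.25 and 7.59 in KU-0063794 and 8.23, 7.24 and 7.55 in rapamycin, against 8.91, 7.90 and 8.36 in DMSO cultures, an order of spleens like that of Id2. Nfil3, a basic leucine zipper factor, fell by 0.42 with KU-0063794 and by 0.61 with rapamycin (adjusted p 0.0423 and 0.0115). Rora was also called with KU-0063794 but lay near background. The riser was Myc, as given above, which sits in this list too. The list median was -0.12 log2 with KU-0063794 and -0.22 with rapamycin.

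Of 16 tested factors of memory and quiescence, 0 rose and 1 fell with KU-0063794, and 1 rose and 2 fell with rapamycin in the blocked fit. In that fit 12.4% and 11.8% of all genes were called. Without the block none passed. At an unadjusted p under 0.05 there were 3 for each inhibitor against DMSO, where 18.5% of all genes passed with KU-0063794 and 17.9% with rapamycin. Stat3, the transducer of IL-6, IL-10 and IL-21 signals, fell to 5.08, 5.08 and 4.54 in KU-0063794 and 5.27, 5.34 and 4.80 in rapamycin, against 5.82, 5.72 and 5.20 in DMSO cultures. Its difference was -0.68 with KU-0063794 and -0.44 with rapamycin (SE 0.07, adjusted p 0.00170 and 0.00694). Lef1, the close relative of TCF-1, rose by 0.30 log2 with rapamycin (adjusted p 0.0397), and Foxo3 fell by 0.29 (adjusted p 0.0403). The list median was 0.08 with each inhibitor. Memory genes associated with TCF-1 gave 2 risers and 0 fallers of 10 with each inhibitor in the blocked fit. Among all genes, 6.52% rose with KU-0063794 and 6.24% with rapamycin in that fit, and 4.07% and 4.44% were called without the block. Cd27, a costimulatory receptor, rose in both, by 0.85 with KU-0063794 and 1.00 with rapamycin (adjusted p 0.0453 and 0.0244 without the block, where it was the only riser of this list). In the blocked fit the receptor Slamf6 joined it with KU-0063794, by 0.68 (adjusted p 0.0229). Ccr7, the lymph node homing receptor, joined it with rapamycin, by 0.93 (adjusted p 0.00585). Of the 3 Slamf6 probe sets, 1 was above background, and 2 of the 3 had the same sign with KU-0063794. The median of the 10 was -0.05 and -0.07 log2 with KU-0063794 and rapamycin.

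**Figure D5:**
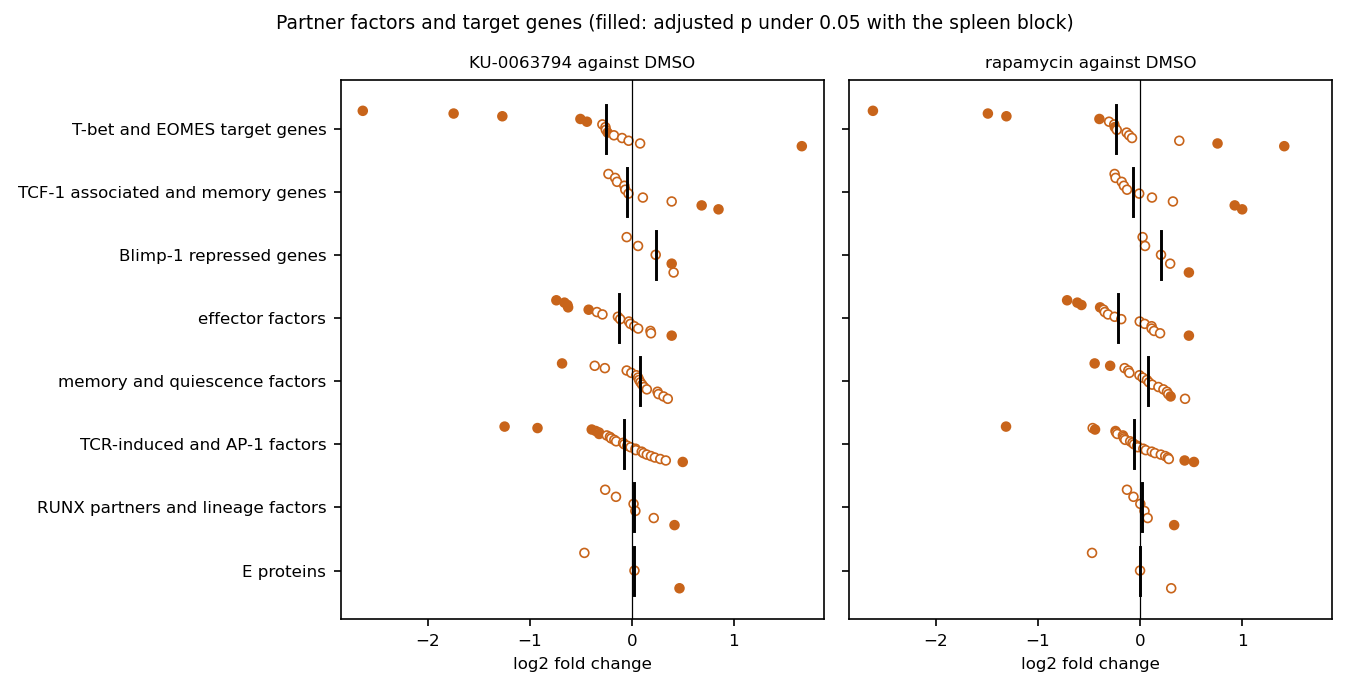
Log2 fold change (x axis) of each tested gene in 8 lists of partner factors and target genes (y axis), KU-0063794 against DMSO on the left and rapamycin against DMSO on the right. Filled points have an adjusted p under 0.05 with the spleen block and bars are list medians; the medians lie between -0.26 and 0.23 while single genes such as Ifng and Cxcr3 lie far out.

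By likeness of pattern, measured as the root mean square difference over the 9 arrays after centring each gene on its mean, the genes nearest to Id2 were Ppp1r3b, a glycogen-targeting subunit of protein phosphatase 1 (0.13 log2), the small GTPase Rhoq (0.14) and Plxdc2 (0.15), which lay near background in KU-0063794 cultures, against a spread of 0.62 for Id2 itself. Their differences from DMSO were -0.96, -0.90 and -1.12 with KU-0063794 and -0.81, -0.68 and -0.74 with rapamycin. Nearest to Irf4, whose own spread was 0.34, were Ptpn6, the phosphatase SHP-1 (0.15), the water channel Aqp3 (0.16) and the exosome subunit Exosc7 (0.17). These 3 differed from DMSO by 0.40, 0.51 and 0.35 with KU-0063794, and by -0.04, 0.23 and 0.03 with rapamycin. Aqp3 lay near background in DMSO cultures, with a mean of 1.43. Genes were ranked on the same arrays that gave the differences, so these values describe likeness and test nothing.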

How the data were processed

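All 9 arrays, 3 each of KU-0063794, rapamycin and DMSO cultures, were analysed. The deposited values are log2 signals per probe set, made by the authors with Affymetrix Expression Console 1.3.1, per the submitters' processing notes; how background was corrected and signals summarised and normalized is not given in the sources used here. They were used as deposited; identical values recur across arrays (136094 distinct of 405909). The array annotation gave symbols for 34945 probe sets; 932 with several symbols, 9160 unlisted and 64 controls were left out. A single probe set, that of highest mean signal, stood for each of 18193 genes, and 13278 above the 40th percentile (0.31 log2) were tested.

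Tests used limma 3.58.1 in R 4.3.3 (lmFit, eBayes, two-sided, all 9 arrays), with Benjamini-Hochberg adjustment over all genes and a threshold of 0.05. The fit without a spleen term was the main one. Spleens were numbered by the replicate number in the sample titles, and equal numbers were taken as the same spleen. A fit with a fixed spleen effect (the block) is given beside the main fit, because the labels state that the treatments shared spleens. A further reason was that arrays of a spleen deviated together (r 0.345 to 0.533 in 9 pairs, against -0.414 to -0.0791 in 18 pairs of different spleens). Deviations from a group mean cancel within the group, so positive values within spleens make those between spleens negative on balance. All 16 probe sets were also tested in a fit of 22947 probe sets. Other settings covered the block, normalization, filters, variance model, groups in the fit, summary of probe sets and each array or spleen left out; the blocked fits with further changes were chosen after seeing the data. The members and gene lists were chosen with earlier results of these data known. Besides the members, up to 2 genes of each list per direction and contrast that passed in the fit described were named, by size of fold change, and 3 genes nearest in pattern to each called member; marker genes and genes named for not passing were chosen after their values were seen. Only 3 arrays a group limit the precision.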

Additional observations from a re-analysis of the deposited data

How the results depend on the processing

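Without the spleen block, 590 genes and 698 probe sets were called for rapamycin and 540 and 619 for KU-0063794 against DMSO, and 0 of the 9 factors. With the replicate block as a fixed effect these counts were 1561 and 2009 for rapamycin and 1644 and 2094 for KU-0063794, with 1 and 2 factors called; as a random effect they were 1245 and 1437, and 1291 and 1476, with 1 factor (Id2) in each. In fits of only the 2 groups compared, without the block, they were 98 and 26 for rapamycin and 111 and 12 for KU-0063794. With the block and quantile normalization, no filter or a filter at background, 1 factor was called for rapamycin and 2 for KU-0063794, and with the block and only the 2 groups compared 1 and 1. Leaving out arrays or spleens without the block, the genes called ranged from 0 to 514 for rapamycin and 0 to 548 for KU-0063794, and probe sets from 0 to 553 and 0 to 604. With the block and single arrays left out, genes ranged from 592 to 1335 and 633 to 1393. Factors, with or without the block, ranged from 0 to 2 and 0 to 3. The lowest counts of genes came from leaving out a whole spleen, which leaves 2 arrays a group. With the block, Id2 passed in 15 of 15 settings in both contrasts (adjusted p up to 0.0278 for KU-0063794 and 0.0397 for rapamycin); without it, in none of 20. Irf4 with KU-0063794 also missed with the random block (adjusted p 0.0744) and with only the 2 groups compared (0.0886), and Runx3 passed with KU-0063794 in 1 of 15 (adjusted p 0.0490). The sign turned in 16 of 27 differences of single factors under some setting, in none of them with a call (lowest adjusted p 0.635). With the mean of probe sets, Runx3 in KU-0063794 against rapamycin was 0.040. The other turns came from left-out arrays, over which the log2 differences of KU-0063794 against rapamycin ranged from -0.11 to 0.037 for Tbx21, -0.95 to 0.41 for Eomes, -0.13 to 0.28 for Prdm1, -0.34 to 0.23 for Bach2, -0.42 to 0.094 for Id2, -0.19 to 0.45 for Id3 and -0.25 to 0.028 for Runx3. Against DMSO the KU-0063794 differences ranged from -0.074 to 0.15 for Tbx21, -0.73 to 0.65 for Eomes, -0.0036 to 0.40 for Prdm1 and -0.063 to 0.74 for Id3, and the rapamycin ones from -0.022 to 0.18 for Tbx21, -0.43 to 0.88 for Eomes, -0.10 to 0.31 for Prdm1, -0.18 to 0.63 for Id3 and -0.10 to 0.29 for Irf4. These ranges take fits with and without the block together. With the block, no setting turned the sign of Eomes, Id3 or Irf4 with rapamycin, or of Prdm1 or Id3 with KU-0063794. The same held for Eomes, Id2 and Runx3 between the inhibitors. Eomes with rapamycin ranged from 0.16 to 0.36 with the block and from -0.43 to 0.88 without it. The other differences listed turned under some blocked setting too. The causes were not tested. Signals near background limit the minor probe sets of Bach2, Irf4 and Runx3. Between the inhibitors, 4 genes were called with the block and quantile normalization. With the block and the DMSO culture of spleen 1 left out, 1 gene was called. None of these was a factor, and no other setting called a gene between the inhibitors.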
